A study of Mus musculus with 24 samples.

Results

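The genes described here encode the proteins of the cytosolic ribosome. Members were taken by symbol: Rpl or Rps followed by a digit, or Rplp0, Rplp1, Rplp2 or Rpsa, without pseudogenes (-ps), names ending in l and the Rps6k kinases. This gave 80 of the 45719 probes and 54 of the 17583 gene symbols on the array. Of these, 31 genes belong to the large subunit, 17 to the small subunit and 2 to the P stalk. The other 4 symbols meet the letter of the rule but name no standard subunit: Rpl22l1, Rpl7l1, Rps19bp1 and Rps23rg1.

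Primitive erythroid cells, which form the earliest blood of the mouse embryo, were profiled on 24 Illumina bead arrays at 6 stages, embryonic day 7.5 (E7.5) to E12.5. All embryos carried the human epsilon globin::H2B-EGFP transgene, which puts a green histone under globin promoter control, and GFP(+) cells were sorted by flow cytometry. They came from whole embryos treated with collagenase at E7.5 to E9.5 and from bled embryonic blood at E10.5 to E12.5, so the step from E9.5 to E10.5 is also a change of source. A replicate was a pool of embryos up to E10.5 and a single embryo at E11.5 and E12.5. The 3 replicates of E7.5 and 3 replicates of E8.5 were amplified in 2 rounds. RNA of 6 other E8.5 replicates and of the later stages up to E12.5 (n = 3 per stage) had 1 round. The 2 kinds of array were normalized separately and never tested against each other, so signals of one kind are not on the scale of the other. The sort relied on the globin transgene, and all 10 primitive erythroid marker genes with a probe were detected on every 1-round array. At E7.5, 8 to 9 of the 10 were detected, Rhag on no array. These markers summed to 8630 to 23600 at E7.5 and to 61100 to 79700 on the 2-round arrays of E8.5. Of 7 macrophage and leukocyte markers with a probe, Ptprc, Adgre1, Lyz2 and Fcer1g were detected on no array, but Laptm5 was detected up to E11.5. The summed signal of the 7 was 3670 to 5070 at E7.5 and 521 to 1040 on the 2-round arrays of E8.5. On the 1-round arrays, a separate scale, it was 155 to 244. In addition, visceral endoderm markers summed to a signal of 288 to 747 on the 1-round arrays of E8.5 and to 223 to 233 at E11.5 and E12.5. Undetected markers add a background value to every marker sum. Of the 10 endoderm markers with a probe, 9 were detected on no array of E11.5 and 9 on none of E12.5.

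A ribosome is built from a small subunit, which reads the messenger RNA, and a large subunit, which joins amino acids. Each holds ribosomal RNA and one copy of most of its proteins, and the P stalk of the large subunit recruits translation factors. Ribosomal protein messengers typically begin with a cytosine followed by a run of pyrimidines, the terminal oligopyrimidine (TOP) motif, through which their translation is controlled. Red cell precursors make large amounts of globin, and mutations in several ribosomal protein genes cause Diamond-Blackfan anaemia, a failure of red cell production, in humans.

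The start regions of 6 genes are shown because 5 of them were lower at E12.5 under every scaling tried and 1, Rpl14, was the single member called higher at E12.5 than at E8.5. Each stretch is RefSeq sequence of build GRCm38.p6, written 5′ to 3′ along the gene, with 60 bases before the annotated start and 20 from it on, so that the start is base 61. Capitals mark the longest unbroken run of C and T within 20 bases of the start.
Rps24: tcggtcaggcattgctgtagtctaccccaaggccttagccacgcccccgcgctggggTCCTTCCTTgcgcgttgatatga
Rpl27a: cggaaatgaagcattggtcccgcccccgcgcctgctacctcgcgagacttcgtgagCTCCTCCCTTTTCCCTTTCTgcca
Rpl13a: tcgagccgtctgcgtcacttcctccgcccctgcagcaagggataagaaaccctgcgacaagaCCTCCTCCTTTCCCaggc
Rpl38: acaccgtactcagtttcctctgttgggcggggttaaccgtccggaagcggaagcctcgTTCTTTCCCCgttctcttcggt
Rplp0: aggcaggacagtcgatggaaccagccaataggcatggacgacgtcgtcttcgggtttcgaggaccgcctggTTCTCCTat
Rpl14: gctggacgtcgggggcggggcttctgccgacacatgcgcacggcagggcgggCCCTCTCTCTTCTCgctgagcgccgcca
These stretches lie at chr14:24490618-24490697 on the plus strand (Rps24), chr7:109519135-109519214 on the plus strand (Rpl27a), chr7:45128726-45128805 on the minus strand (Rpl13a), chr11:114668520-114668599 on the plus strand (Rpl38), chr5:115559407-115559486 on the plus strand (Rplp0) and chr9:120571457-120571536 on the plus strand (Rpl14), each across its gene's promoter and first exon. Where the table holds several starts, as for Rps24, the first listed is shown. In Rpl27a the pyrimidine run is 20 bases long and spans the start. Rpl38 and Rpl14 have a C at the annotated start followed by at least 4 further pyrimidines. The longest runs of Rpl13a and Rplp0, of 14 and 7 bases, lie only downstream of the start.

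Of the 51 member genes tested on the 1-round arrays, 41 had a promoter window in RefSeq, 50 windows in all, each 300 bases long. A C at the annotated start with 4 or more pyrimidines after it stood in 20% of member windows and in 2.51% of all 32851 windows. The letters CCGGAAG, recognised by ETS family factors, were found on either strand in 28% of member windows and 8.86% of all. AAGATGGC, recognised by YY1, stood in 16% against 2.75%, and TATAAA in 12% against 13.6%. CTTTTCC stood on the plus strand in 16% against 3.91%, and CTCTTTCC, which can overlap a pyrimidine run, in 14% against 1.5%. Such matches describe the letters and show no bound factor.

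A gene was read from its brightest tested probe, where a tested probe had a detection p under 0.05 on 3 or more arrays. On the 1-round arrays 51 of the 54 genes could be tested, all but Rpl17, Rpsa and Rps23rg1, and 41 were detected on all 18 arrays. On the 2-round arrays 50 genes were tested. Values are log2 signals after background correction and quantile normalization, a change is later stage minus earlier stage, given with its standard error (SE), and a gene was called when its limma p, adjusted over all probes by Benjamini-Hochberg, was under 0.05. The arrays lay on 4 slides. E8.5 replicates 1 to 3 shared slide 2 with E9.5, and replicates 4 to 6 shared slide 3 with E12.5. Both E10.5 and E11.5 were on slide 4. The E12.5 arrays stood apart, with 8542 to 10570 detected probes against 12355 to 15387 on the other 1-round arrays. The number of arrays limits the precision of every value, and p-values cover only the spread between these samples.

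As a whole, the family held 5.95% to 7.35% of the signal on the 1-round arrays up to E11.5 and a smaller share at E12.5. Before any scaling between arrays was done here, the 80 probes made up 6.30% to 7.35% of the summed background-corrected signal over the 6 E8.5 arrays. The deposited intensities of slides 2 and 4 already shared 1 distribution, from scaling before deposit, whereas those of slide 3 varied between arrays. On slide 3, which also holds E12.5, the E8.5 arrays gave 6.42% to 6.96%. The share was 5.95% to 7.16% at E9.5, 6.77% to 7.29% at E10.5 and 6.13% to 6.29% at E11.5. Every E11.5 array lay below every E10.5 array of the same slide. At E12.5 it was 2.63%, 4.45% and 4.07% on replicates 1, 2 and 3, each below every other 1-round array. The 15 globin probes went the other way on the same slide, from 1.99% to 2.38% at E8.5 to 9.22% to 10.9% at E12.5. A share falls when other transcripts rise, and in sorted cells measured in bulk, less RNA per cell and fewer expressing cells cannot be told apart. The part that the globin rise has in the fall of the ribosomal protein share was not tested.

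**Figure D1:**
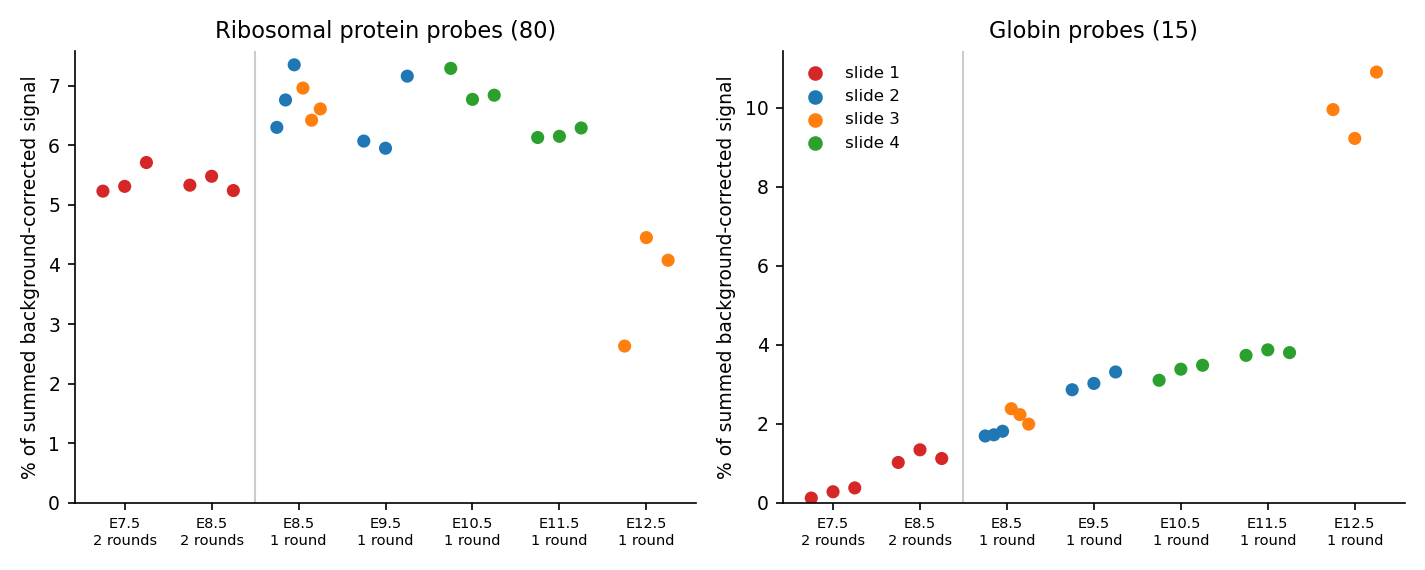
Percent of the summed background-corrected signal on each array held by the 80 ribosomal protein probes (left) and the 15 globin probes (right), by stage and rounds of amplification; each point is 1 array, coloured by slide. At E12.5 the ribosomal protein share was 2.63% to 4.45% and the globin share 9.22% to 10.9%.

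The comparison of E12.5 with E8.5 (n = 3 and 6) asks how these messengers differ between the least and the most mature cells with 1 amplification round. Of 51 genes, 32 were called lower and 1 higher, that is 64.7%, against 72% of all 9412 genes tested, of which 38.2% were lower and 33.8% higher. The share of members called was thus no larger than that of all genes, and 32 of its 33 calls were lower. The median change was -0.90 for the members and -0.06 for all genes. Within slide 3, which holds 3 arrays of each stage, 29 members were lower and 1 higher, with a median of -0.69. Of all 9412 genes, 3219 were lower and 2582 higher there. The E12.5 arrays were uneven. In quantile-normalized values the median log2 signal over the members was 9.52 on replicate 1, 10.55 on replicate 2 and 10.32 on replicate 3. On the E8.5 arrays of slide 3 it was 10.83 to 11.12. The size and the direction of the median change of the members depended on the scaling. It was -0.73 in the authors' processed values and -0.12 under median scaling, with 12 members higher and 20 lower, where all genes moved by 1.72. It was 0.30 under cyclic loess, with 20 members higher and 15 lower. Of all genes, 6933 were higher and 1378 lower under median scaling, and 1309 higher and 1857 lower under cyclic loess. With no scaling between arrays, a setting chosen after seeing the data, the member median was -1.94, with 46 members lower. Of all genes, 3989 were lower and 3122 higher there. In that setting the E8.5 arrays of slide 2, scaled before deposit, stood beside those of slide 3. All 7 tested visceral endoderm markers were lower at E12.5 too, with a median of -1.08, as were 5 of 7 endothelial markers, with 2 higher and a median of -0.53. Their part in the result was not tested.

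Under 6 scalings and within slide 3, 10 genes were called lower at E12.5 each time: Rpl10a, Rpl13a, Rpl22, Rpl27a, Rpl36, Rpl38, Rplp0, Rps24, Rps3a1 and Rpl7l1. No member was called higher under all of them. How many of all genes met the same rule was not counted, so the number of members is no measure of an excess. These calls rest on the brightest probe. Another probe of Rpl27a, Rps24 and Rpl7l1 was called higher in quantile-normalized values.

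Rps24, a small subunit protein mutated in Diamond-Blackfan anaemia, had the largest fall in quantile-normalized values by its brightest probe, whereas under median scaling, cyclic loess and no scaling Rpl27a fell further. Its log2 signal at E8.5 had a lowest value of 8.03, a median of 8.36 and a highest of 8.46. It read 7.51, 7.47 and 7.67 at E9.5, 7.48, 7.02 and 7.15 at E10.5, and 6.29, 6.29 and 6.85 at E11.5. At E12.5 it read 4.47, 4.42 and 4.77 and was not detected on any array. The E8.5, E9.5, E11.5 and E12.5 arrays formed separate groups, and those of E9.5 and E10.5 overlapped. By this probe, Rps24 was at least 9.81-fold lower at E12.5 than at E8.5 (limma adjusted p = 1.4e-14), whereas its dimmest probe was called higher. This bound and those of the other undetected genes hold for quantile-normalized values. The change of Rps24 was -1.75 under median scaling and -1.78 under cyclic loess, both called.

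Rps3a1, a small subunit protein at the messenger exit, had E8.5 values from 9.03 to 10.28 with a median of 9.45, and E12.5 values of 8.29, 8.24 and 8.91. The groups did not overlap, although E8.5 arrays of slide 3, at 9.03 to 9.12, lay nearest to E12.5. It fell by 1.09 ± 0.29 (adjusted p = 0.0021). Rps19, the gene most often mutated in Diamond-Blackfan anaemia, had an E8.5 range of 6.23 to 6.88 with a median of 6.58. Its 3 arrays at E9.5 read 5.52, 5.63 and 5.80, those at E10.5 5.71, 5.38 and 5.56, and those at E11.5 4.55, 4.67 and 4.50. It was not detected on any array of E11.5 or E12.5. It was at least 2.91-fold lower at E12.5 than at E8.5 (adjusted p = 5.4e-11), but its change was 0.14 under median scaling.

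Among large subunit genes, Rpl27a had the largest fall. Its brightest probe ranged from 10.25 to 11.12 at E8.5, with a median of 10.60. It read 9.72, 9.13 and 9.85 at E9.5, 8.71, 8.60 and 8.78 at E11.5 and 7.68, 8.07 and 7.73 at E12.5. These stages did not overlap, and the change from E8.5 to E12.5 was -2.81 ± 0.21 (adjusted p = 6.7e-11). A second probe of the gene rose by nearly as much and is described with the other probe disagreements.

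Rpl13a, which also takes part in silencing of inflammatory messengers, held at 10.88 to 11.44 at E8.5, with a median of 11.27. It read 10.65, 10.80 and 11.24 at E9.5 and 8.23, 9.42 and 8.78 at E12.5. E9.5 overlapped E8.5, whereas E12.5 lay below both. It fell by 2.40 ± 0.22 between E8.5 and E12.5 (adjusted p = 1.8e-09), and its second probe fell by 2.59 ± 0.25 (adjusted p = 5.9e-09).

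Rpl38, known in mouse for its part in translating Hox messengers, had E8.5 values of 9.52 to 10.26, with a median of 10.09. It read 9.39, 9.25 and 9.30 at E9.5, 8.63, 8.72 and 8.82 at E10.5 and 7.55, 8.12 and 7.87 at E11.5. At E12.5 its arrays were spread, at 6.88, 8.33 and 8.57. They overlapped those of E11.5 and stayed below E8.5, and the change from E8.5 was -2.04 ± 0.26 (adjusted p = 3.8e-07).

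Rpl22, whose protein is dispensable for translation in mouse, ranged from 7.41 to 8.78 at E8.5 and split by slide, with 8.69 to 8.78 on slide 3 and 7.41 to 7.73 on slide 2. It read 6.60, 6.43 and 7.01 at E9.5 and 6.18, 6.64 and 6.18 at E12.5. The later stages lay below both sets of E8.5 arrays. It fell by 1.83 ± 0.26 from E8.5 to E12.5 (adjusted p = 1.8e-06), and its change within slide 3 was -2.39. Rpl10a, another protein of the large subunit, read 9.90, 10.06 and 9.97 at E12.5 against 11.59 to 12.29 at E8.5, and fell by 1.89 ± 0.20 (adjusted p = 2.6e-08). Rpl36 fell by 2.42 ± 0.55 (adjusted p = 5.0e-04). Its E8.5 arrays also split by slide, at 7.33 to 7.54 on slide 3 and 10.05 to 10.25 on slide 2, so that the change within slide 3 was -1.05.

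Rplp0, the scaffold of the P stalk, had E8.5 values of 8.17 to 8.69, with a median of 8.47. It read 7.49, 7.38 and 7.82 at E9.5, 6.80, 6.57 and 6.69 at E11.5 and 6.33, 6.47 and 5.87 at E12.5. No array of E9.5 reached the E8.5 range, and none of E12.5 the E11.5 range. It fell by 2.24 ± 0.17 from E8.5 to E12.5 (adjusted p = 6.2e-11). Rplp2, the other stalk gene with a tested probe, changed by -0.18 ± 0.18 (adjusted p = 0.40).

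**Figure D2:**
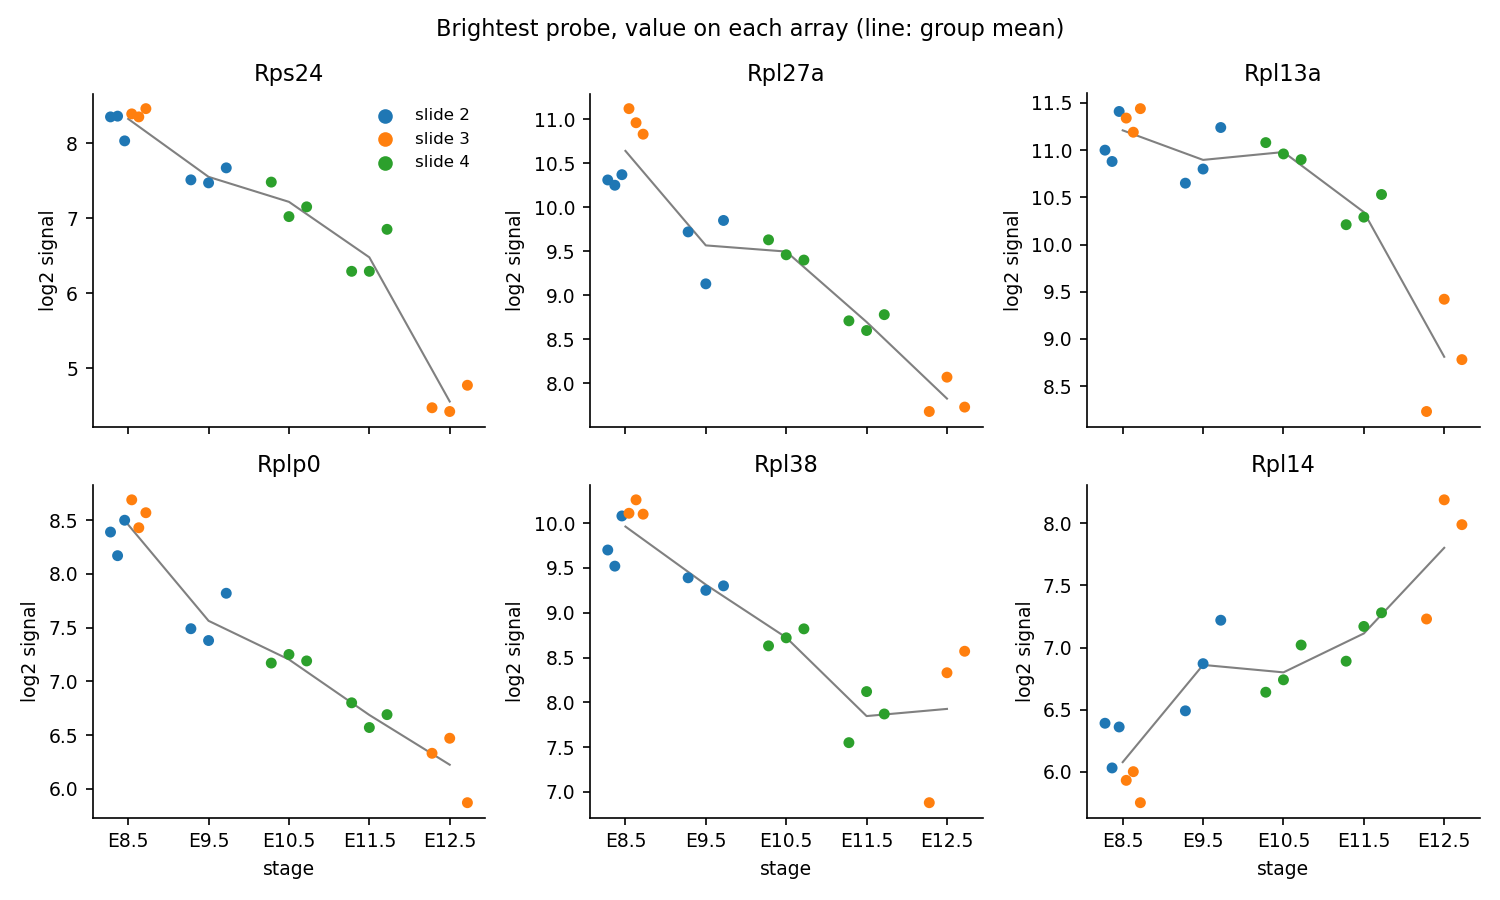
Log2 signal (vertical axis) of the brightest probe of 6 genes on each 1-round array, by stage (horizontal axis); points are arrays coloured by slide, lines join group means. In quantile-normalized values, Rps24, Rpl27a, Rpl13a, Rplp0 and Rpl38 were lower at E12.5 than at E8.5, and Rpl14 was higher; the order for Rpl14 turned to -0.28 with no scaling between arrays.

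Rpl14, a large subunit protein, went against the other called members. Its E8.5 values ran from 5.75 to 6.39, with a median of 6.01. It read 6.49, 6.87 and 7.22 at E9.5, 6.64, 6.74 and 7.02 at E10.5, 6.89, 7.17 and 7.28 at E11.5 and 7.23, 8.19 and 7.99 at E12.5. All later arrays lay above the E8.5 arrays. It rose by 1.73 ± 0.21 between E8.5 and E12.5 (adjusted p = 1.7e-07) and by 1.91 within slide 3, and its change was -0.28 with no scaling between arrays. The next largest positive changes were 0.41 ± 0.19 for Rpl39, 0.18 for Rps3, 0.14 for Rpl41 and 0.01 for Rps14, none of which passed the test.

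Most members outside this set changed less. By subunit, 18 of 30 large subunit genes and 10 of 16 small subunit genes were lower, with median changes of -0.83 and -0.75. Rpl29 was at least 3.96-fold lower and Rpl22l1, a paralog of Rpl22, at least 2.23-fold lower. By the brightest probe, neither was detected at E12.5, where 8 members were detected on no array: Rpl21, Rpl22l1, Rpl29, Rps13, Rps15a, Rps19, Rps19bp1 and Rps24. With these 8 at their bound the family median was -0.80. The dimmest probe of Rps24, however, was detected on all 3 arrays of E12.5. Of the anaemia genes besides Rps19 and Rps24, the large subunit genes Rpl26, Rpl5 and Rpl35a fell by 1.15 ± 0.28, 0.93 ± 0.26 and 0.72 ± 0.20, with limma adjusted p of 0.001, 0.003 and 0.0025. Within slide 3 their changes were -0.59, -0.40 and -0.71, with adjusted p of 0.071, 0.055 and 0.033, and the arrays of Rpl26 overlapped there. Under cyclic loess they were -0.09, 0.18 and 0.32. Rpl11, whose free protein binds the p53 regulator Mdm2, changed by -0.37 ± 0.20 (adjusted p = 0.11).

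The brighter members changed less than the dimmer ones in quantile-normalized values. Of the 41 genes detected on all 18 arrays, 20 had a mean E8.5 log2 signal of 12 or more, and 7 of these were lower, with a median change of -0.42. Of the other 21 genes, 17 were lower and 1 higher, with a median of -1.15. Under cyclic loess these medians were 1.25 and -0.35, and within slide 3 they were -0.49 and -0.71. Over the 41 genes, Spearman's rho between the E8.5 mean and the change was 0.56, 0.77 under cyclic loess and 0.27 within slide 3. The points share the same arrays, and E8.5 enters both axes, so this is a description. The 99th percentile of the E12.5 arrays was also lower before scaling, at 457.9 to 610.2 against 1258 to 1477 on the E8.5 arrays of slide 3. Their highest signal was not lower, at 22650 to 24880 against 18530 to 22760.

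**Figure D3:**
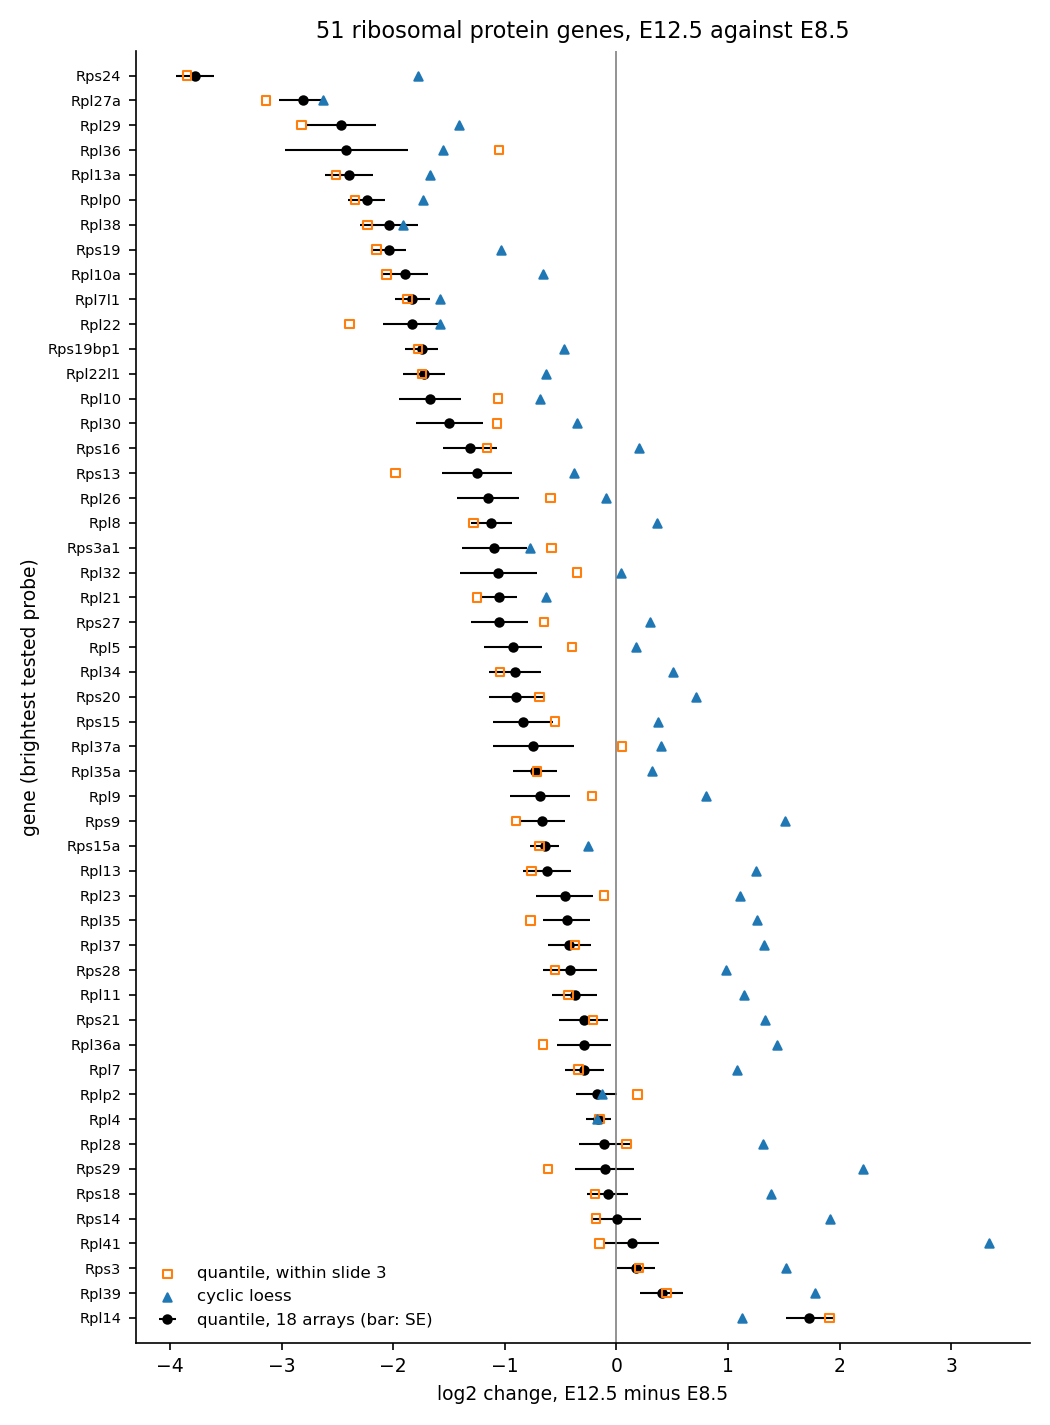
Log2 change from E8.5 to E12.5 (horizontal axis) for the 51 tested genes (vertical axis, by the brightest probe), with quantile normalization over 18 arrays (black, bars are SE), within slide 3 (orange squares) and under cyclic loess (blue triangles). The family median was -0.90, -0.69 and 0.30 in that order; most genes in the upper part of the plot lie left of 0 in all 3.

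The change between E8.5 and E9.5 (n = 6 and 3) was narrower and rested on few genes. Of 51 members, 9 were lower and 2 higher, which is 21.6%, against 18.9% of all genes tested, 11.7% lower and 7.21% higher, so the share called was near the background. The member median was -0.18, that of all genes -0.06. Called lower under all 6 scalings were Rpl21, Rpl22, Rpl27a, Rpl29, Rplp0, Rps19 and Rps24, and these 7 were also the members called within slide 2, where both stages lay together. Without E8.5 replicate 1 the count was 17, and without E9.5 replicate 2 it was 7. Rpl29 fell by 1.62 ± 0.31 (adjusted p = 0.00062) and Rpl22 by 1.48 ± 0.26 (adjusted p = 0.00024), and within slide 2 their changes were -1.26 and -0.91. Rps19 fell by 0.92 ± 0.15 (adjusted p = 9.5e-05), Rplp0 by 0.90 ± 0.17 (adjusted p = 0.00041), and Rps24 by 0.77 ± 0.17 (adjusted p = 0.0019), with changes within slide 2 of -0.81, -0.79 and -0.70. Rpl14 rose by 0.78 ± 0.21 (adjusted p = 0.011), and within slide 2 its change was 0.60 (adjusted p = 0.074). Rpl30, called higher with 0.91 ± 0.30, changed by 0.49 within slide 2 (adjusted p = 0.33). Markers of other cells moved over the same step. Of 7 tested visceral endoderm markers 6 were lower (median -0.98), and of 7 endothelial markers 2 were lower and 2 higher (median -0.27), Kdr rising by 2.22 ± 0.27 and Pecam1 falling by 1.40 ± 0.20. Of 2 tested macrophage and leukocyte markers 1 was lower (median -0.66), Laptm5 falling by 1.43 ± 0.23. Of 2 tested epiblast and mesoderm markers 1 was lower (median -0.94), Dnmt3b falling by 2.00 ± 0.28. The part of these cells in the changes was not tested.

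In the step from E9.5 to E10.5, with 3 arrays a stage, limma called 0 of 51 members, against 1.94% of all genes (1.36% higher and 0.584% lower), and 2 members passed when only these groups were fitted. The median change was 0.05, with -0.02 under both median scaling and cyclic loess, and single genes ran from -0.61 (Rpl30) to 0.65 (Rps18). At an unadjusted p under 0.05 there were 4 members. Stage, source of the cells and slide cannot be told apart in this step.

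Between E10.5 and E11.5 (n = 3 each), both on slide 4, 5 members were lower and none higher, which is 9.80%, against 11.3% of all genes, 7.24% lower and 4.08% higher, with medians of -0.26 and -0.06. The count was small for any left-out array, 1 to 3 of the 51. In all, 46 of 51 changes were negative under quantile normalization, against 5709 of all 9412 genes. Under all 6 scalings 31 member changes were negative, and the member median was -0.07 under cyclic loess. Rps19 and Rps24 were lower under all 6 scalings. Rps19 was at least 1.97-fold lower at E11.5 (adjusted p = 0.00095), and Rps24 fell by 0.74 ± 0.19 (adjusted p = 0.016). The other 3 were Rpl27a with -0.80 ± 0.24 (adjusted p = 0.036), Rpl22l1 with -0.81 ± 0.22 (adjusted p = 0.020) and Rpl7l1 with -0.56 ± 0.18 (adjusted p = 0.044). Rpl7l1 encodes a protein of early large subunit assembly rather than a subunit of the mature ribosome.

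Between E11.5 and E12.5 (n = 3 each) 20 members were lower and 2 higher, which is 43.1%, against 50.5% of all genes, 23.9% lower and 26.5% higher. The direction turned with the scaling. The median was -0.31 under quantile normalization, 0.30 under median scaling, where all genes moved by 1.90, and 0.45 under cyclic loess. Median scaling gave 18 members higher and 12 lower, and cyclic loess 21 higher and 4 lower. Of all 9412 genes, 7356 were higher and 561 lower under median scaling, and 1131 higher and 999 lower under cyclic loess. These stages lay on different slides, so stage and slide cannot be told apart. Called lower under all 6 scalings were Rpl10, Rpl27a, Rpl36 and Rps3a1, and Rpl41 was called higher. Rpl36 fell by 2.88 ± 0.64 (adjusted p = 0.00063) and Rpl10, a late-joining large subunit protein, by 1.93 ± 0.32 (adjusted p = 2.8e-05). Rpl41, the smallest ribosomal protein, read 12.63, 13.09 and 12.94 at E11.5 and 13.58, 13.78 and 13.67 at E12.5. The groups did not overlap, and it rose by 0.79 ± 0.28 (adjusted p = 0.021). At E8.5 it had already read 12.75 to 13.91, so that the E12.5 values lay inside the E8.5 range.

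The first step, from E7.5 to E8.5 (n = 3 each, 2 rounds of amplification, slide 1), asks what changed as the lineage first appeared. Of 50 members, 5 were higher and 2 lower, which is 14%, against 13% of all 8568 genes tested, of which 5.63% were higher and 7.39% lower, so the share called was near the background. The median change was -0.09 and turned to 0.11 under median scaling and to 0.14 with no scaling between arrays. Rpl21, Rps13, Rps27, Rpl39 and Rpl36a were called higher under all 6 scalings. Rpl21, a large subunit protein, read 5.0, 4.94 and 5.01 at E7.5 and 6.36, 7.22 and 6.97 at E8.5. Rps13, of the small subunit, read 7.49, 7.02 and 6.48 at E7.5 and 8.96, 8.95 and 8.67 at E8.5. Neither gene's groups overlapped, and the changes were 1.87 ± 0.28 (adjusted p = 0.0081) and 1.86 ± 0.29 (adjusted p = 0.0099). In the authors' processed values they were 0.50 and 1.09, and with an offset of 50 they were 1.20 and 1.62, all called.

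Rps27 rose by 1.09 ± 0.22 (adjusted p = 0.024), Rpl39 by 0.68 ± 0.15 (adjusted p = 0.031) and Rpl36a by 0.61 ± 0.07 (adjusted p = 0.0041). All 3 probes of Rpl21 were called higher, and over single probes 10 of 72 members were called (13.9%), against 12.1% of all probes tested. Rpl7 fell by 0.91 ± 0.19 (adjusted p = 0.026), reading 10.92, 10.99 and 11.13 at E7.5 and 10.20, 10.38 and 9.73 at E8.5. Rpl13a fell by 0.79 ± 0.19 (adjusted p = 0.041), reading 12.11, 12.28 and 12.34, then 11.03, 11.75 and 11.57. Where replicates 1 and 3 of E7.5 were over 4-fold apart, at 351 probes, the value of replicate 2 fell in the gap at 350, and its independence was not tested. Without replicate 2, 1 member was called, Rpl21 and Rps13 having adjusted p of 0.065 and 0.064, and without E7.5 replicate 1 the count was 3. The brightest Rps19 probe changed by -0.17 ± 0.19 (adjusted p = 0.66), while its other probe, undetected at E7.5, was at least 1.66-fold higher at E8.5 (adjusted p = 0.030). Marker sums of other cells moved over this step as well. Epiblast and mesoderm markers summed to 4900 to 7610 at E7.5 and 1830 to 2140 at E8.5, endothelial markers to 2030 to 2350 and 898 to 1510, and visceral endoderm markers to 315 to 624 and 950 to 2880. Their part, and that of the leukocyte and primitive erythroid markers given above, was not tested.

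**Figure D4:**
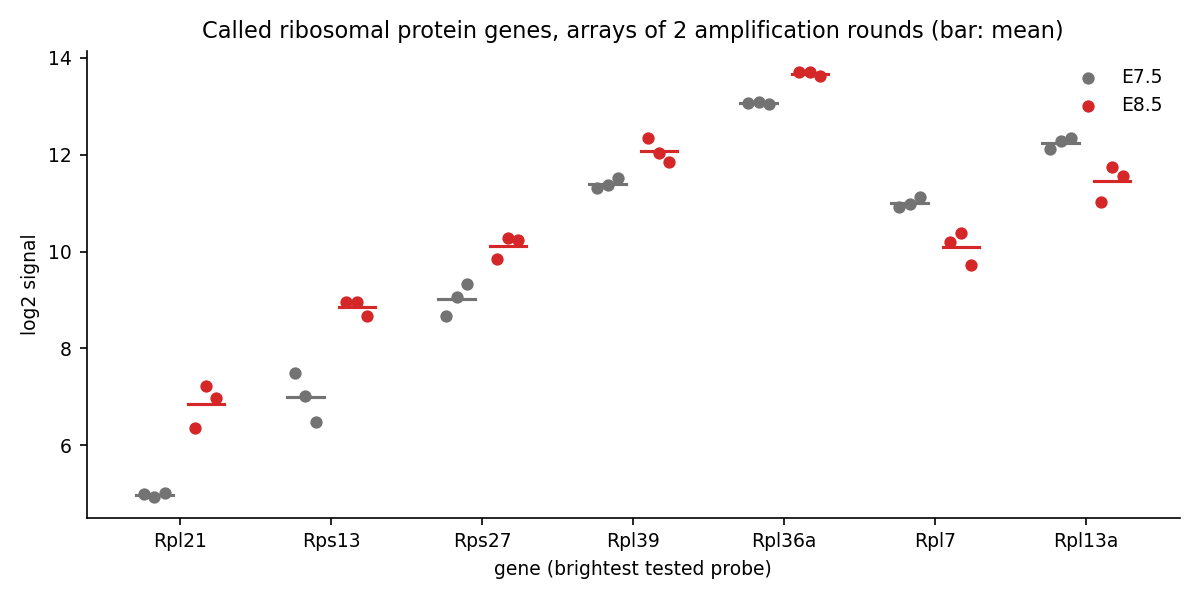
Log2 signal (vertical axis) on the 3 E7.5 arrays (grey) and 3 E8.5 arrays (red) with 2 rounds of amplification for the 7 called members (horizontal axis); points are arrays and bars are means. Rpl21, Rps13, Rps27, Rpl39 and Rpl36a were higher at E8.5, Rpl7 and Rpl13a lower, and no gene's 2 groups overlapped; under median scaling Rpl13a had an adjusted p of 0.095.

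Several genes carry more than 1 probe, which gives a second reading of the same messenger on the same arrays. On the 1-round arrays 15 members had several tested probes, 36 probes in all. Over single probes, 47 of 72 were lower and 5 higher between E8.5 and E12.5, that is 72.2%, against 67.5% of all 17408 probes tested. In that comparison all probes of a gene were called alike for 7 genes, part of them was called for 4, and probes were called in opposite directions for 4: Rpl23, Rpl27a, Rpl7l1 and Rps24. The median range between probes of a gene was 1.21, larger than the size of the family's median change. The 2 probes of Rpl10a fell by 1.89 and 2.03, and the 4 of Rps9 by 0.66 to 1.59.

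The 2 probes of Rpl27a formed mirror images. The second read 5.93 to 6.95 at E8.5, with a median of 6.41. It read 7.58, 7.96 and 8.36 at E9.5, 8.03, 8.19 and 8.38 at E10.5, 8.44, 8.69 and 8.65 at E11.5 and 8.76, 9.18 and 9.35 at E12.5. Every later array lay above every E8.5 array, while the brightest probe fell over the same arrays. The second probe rose by 2.70 ± 0.21 (adjusted p = 1.2e-10) and the brightest fell by 2.81. Under 6 scalings and within slide 3 the 2 probes were called in opposite directions each time, the second with changes of 1.04 to 2.95. At E9.5, where 18 of 72 member probes were called against 16.6% of all probes, they had already parted, with 1.57 ± 0.21 (adjusted p = 7.8e-06) and -1.08 ± 0.21 (adjusted p = 0.00072).

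Rpl7l1 had a similar pair. One of its dimmer probes ranged from 5.43 to 6.90 at E8.5 and read 7.12, 7.82 and 8.07 at E9.5 and 7.41, 8.14 and 8.28 at E12.5, above every E8.5 array. It rose by 1.81 ± 0.28 (adjusted p = 4.2e-06) while the brightest fell by 1.83 ± 0.15 (adjusted p = 5.1e-10), and its change was -0.22 with no scaling between arrays. The third probe fell by 0.86 ± 0.18 (adjusted p = 0.00019), and its change was 1.03 under median scaling.

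The dimmest probe of Rps24 read 4.61 to 5.15 at E8.5, with a median of 4.83, and 5.85, 5.93 and 6.17 at E12.5. It rose by 1.11 ± 0.16 (adjusted p = 2.7e-06) from near background, and its change was 0.11 under cyclic loess (adjusted p = 0.70). The dimmest probe of Rpl23 rose by 1.05 ± 0.20 (adjusted p = 5.5e-05) and its middle probe fell by 1.40 ± 0.21 (adjusted p = 4.1e-06), with 0.03 (adjusted p = 0.91) for the dimmest under cyclic loess. The bases that each probe reads were not used here. RefSeq lists 149 -ps pseudogenes of 37 of the 51 tested members, among them 4 of Rpl27a, 2 of Rps24 and 13 of Rps19. A probe may also read such copies, so that the value of a single probe is uncertain as a measure of its gene.

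**Figure D5:**
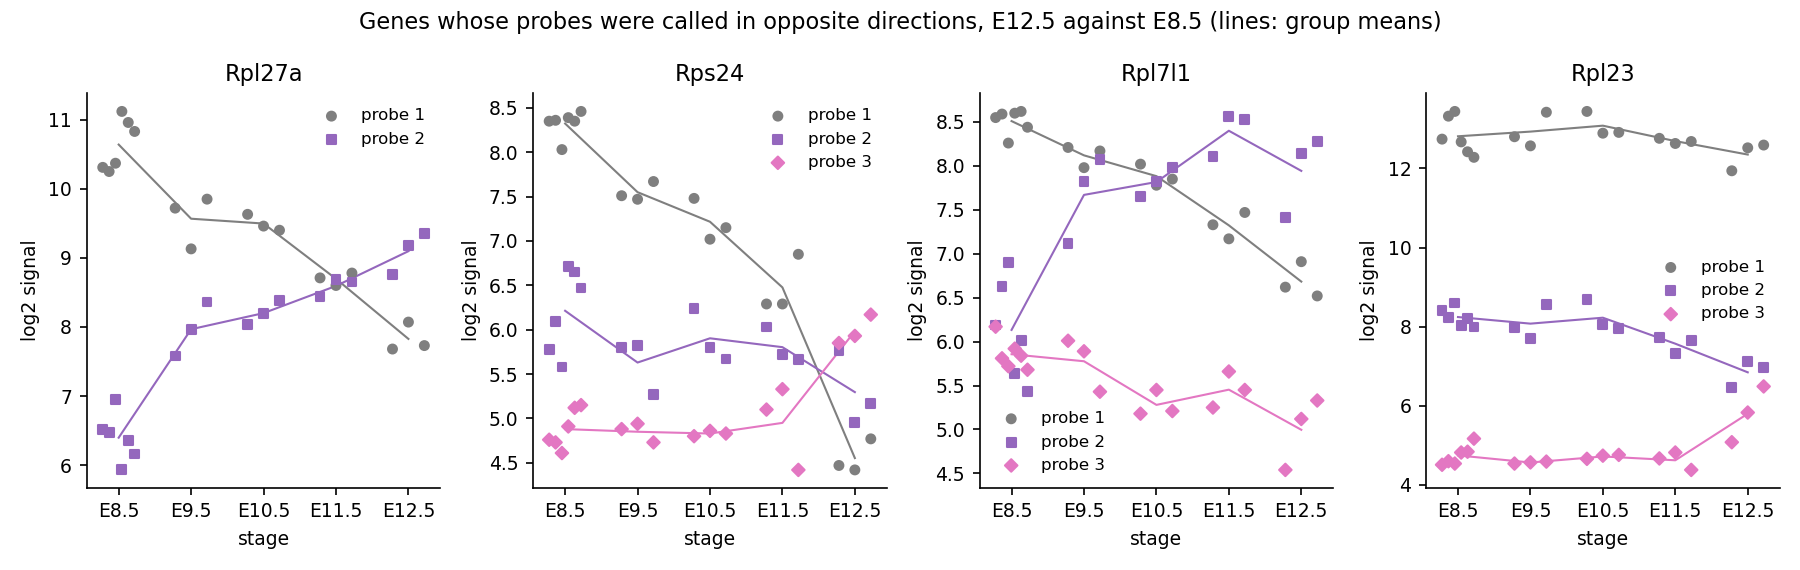
Log2 signal (vertical axis) of each tested probe of Rpl27a, Rps24, Rpl7l1 and Rpl23 on the 1-round arrays, by stage (horizontal axis); points are arrays, lines join group means, and probe 1 has the highest mean. The second probe of Rpl27a rose by 2.70 from E8.5 to E12.5 while probe 1 fell by 2.81, an order kept under all 6 scalings; the rise of the dimmest probes of Rps24 and Rpl23 was 0.11 and 0.03 under cyclic loess, and that of the Rpl7l1 probe was -0.22 with no scaling.

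Slides also differed where stage did not. Between the E8.5 arrays of slide 3 and slide 2, 21 of 51 members were called (41.2%), against 39% of all genes. The median absolute difference was 0.39 for members and 0.26 for all genes. Slide 3 minus slide 2 was -2.75 for Rpl36 and -2.27 for a dimmer probe of Rps3. Whether the 2 sets of E8.5 embryos or the slides differ cannot be told apart.

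Genes that build ribosomes, and ribosomal proteins of another compartment, were read from lists for comparison. Their counts stand against the 72% of all genes called between E8.5 and E12.5, 38.2% lower and 33.8% higher. Of 39 tested ribosome assembly genes, 38 were lower at E12.5 than at E8.5 and 1 was higher, with a median change of -2.28. That median ran from -3.53 to -1.48 over the 6 scalings and was -2.32 within slide 3, negative in each, whereas the ribosomal protein median took both signs. Rrp9, a protein of the U3 ribonucleoprotein, and Nop2, a ribosomal RNA methyltransferase, were not detected at E12.5, and the RNA helicase Ddx21 fell by 3.71 ± 0.19 (adjusted p = 1.5e-13). Between E10.5 and E11.5, 27 of the 39 assembly genes were lower (median -1.02), against 5 of 51 ribosomal protein genes and 7.24% of all genes. The difference between the lists was not tested. Nop58, a core protein of small nucleolar ribonucleoproteins, fell by 1.77 ± 0.24 there (adjusted p = 7.2e-05).

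Of 12 RNA polymerase I genes, which transcribe the ribosomal RNA, 11 were lower and 1 higher at E12.5 than at E8.5 (median -2.01, and -2.54 to -0.72 over the 6 scalings). Of 71 mitochondrial ribosomal protein genes, 64 were lower and 4 higher (median -1.47, and -3.08 to -1.03). Of 18 translation factors and other genes with TOP messengers, 15 were lower and 1 higher (median -1.28, and -2.66 to -0.39). The exception was Pabpc1, the poly(A)-binding protein, which rose by 2.48 ± 0.18 (adjusted p = 5.6e-11). Fau, which encodes the small subunit protein S30 under another name, fell by 1.46 ± 0.22 (adjusted p = 3.4e-06), and its change was -0.02 under cyclic loess.

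Among 9 regulators of ribosomal protein synthesis, 4 were lower and 2 higher, a share called near that of all genes (median -0.46, with 0.73 under median scaling and 0.06 under cyclic loess). Eif4ebp1, a repressor of cap-dependent translation, fell by 1.43 ± 0.25 (adjusted p = 2e-05) and its paralog Eif4ebp2 rose by 1.04 ± 0.18 (adjusted p = 2.8e-05). Of 9 ribosome rescue and turnover genes, 5 were lower and 3 higher (median -0.81, with 0.90 under median scaling). Rnf10, a ubiquitin ligase that marks small subunit proteins, rose by 3.57 ± 0.25 (adjusted p = 2.1e-11), and G3bp1, a stress granule protein, fell by 3.86 ± 0.26 (adjusted p = 1.3e-11). Of 5 p53 response genes, 2 were higher and 1 lower (median 0.16, with -0.02 under cyclic loess), and Cdkn1a, an inhibitor of cell division, rose by 2.14 ± 0.44 (adjusted p = 0.00018).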

How the data were processed

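The deposited table gives, per the file headers, a signal intensity and a detection p-value for each probe on each of 24 Illumina arrays. The deposited intensities of slides 2 and 4 share one distribution, so some scaling had been done before deposit; its method is not given in the sources used here. The authors' processed values, taken as log2, served as an alternative. Intensities were background-corrected with limma 3.58.1 in R 4.3.3 (normexp by detection p, offset 16) and quantile-normalized separately for 18 arrays with 1 round and 6 arrays with 2 rounds of amplification. Probes detected (p under 0.05) on at least 3 arrays were fitted with lmFit and eBayes with a trend, all groups of one kind of array together, with Benjamini-Hochberg adjustment over all tested probes. An undetected group gives a fold only as a bound: the bright group's mean against the higher of the probe's signal and the lowest detected signal.

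The 16221 probes with no symbol and the 8 with several could not be members. The E8.5 replicates 4 to 6 carry the description numbers of other E8.5 replicates; their deviations correlated at -0.253 to -0.017 and they were kept as 6 samples. At E9.5 the first array by title has the same description as the second, so the count of 3 samples there rests on the titles. Replicate numbers were not used to pair samples in the main fit, since in no comparison did every same-numbered pair correlate above 0.1. This check cannot decide on pairing at E8.5, where deviations from the mean of all 6 arrays also carry the difference between slides. From E8.5 to E9.5 all pairs were positive, at 0.059 to 0.147. The alternatives were median scaling, cyclic loess, the authors' values, an offset of 50, no scaling, no filter, the mean of probes, slide or replicate as a block, single slides and leaving out each array. Each gene kept its probe under every scaling. Named genes were, for each comparison, the 5 largest changes in each direction, called members against the majority, genes with opposed probes, the anaemia genes, the stalk genes, Rpsa, Rps6, Rpl10a, Rpl13a, Rpl22 and Rpl38, and up to 3 members of each other list by smallest p; 7 of these, Rps6 and Rplp1 among them, had no annotated probe used here. Genes called under every scaling were also named, a choice made after their values were seen. The members, lists and tests were chosen with earlier results of these data known. The scripts were tested on simulated data. Other steps used data.table (1.17.8), Python 3.11.15, pandas 2.3.3, scipy 1.17.1 and matplotlib 3.10.9.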

Additional observations from a re-analysis of the deposited data

Results flagged for a closer look

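The brightest Rps24 probe had 1 E8.5 array apart from the others: replicate 3 read a log2 signal of 8.03, and the other 5 read 8.35 to 8.46. The gap took a share of 0.744 of the group's range. It was the single such case among 37 named genes, and chance gives about 1 in 20 groups.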

How the results depend on the processing

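Counts of called members moved by more than 1.5 times in these settings. From E7.5 to E8.5, 4 were called with no filter. From E8.5 to E9.5, 7 were called with the replicate block, with slide as a fixed block and within slide 2. From E9.5 to E10.5, 1 was called under median scaling and with the replicate block, and 2 with these groups alone. From E10.5 to E11.5, 9 were called under median scaling, 2 with no filter, 3 with the mean of probes and 16 with these groups alone. From E11.5 to E12.5, 45 were called with no scaling, where 3086 of all 9412 genes were higher and 4285 lower. The replicate block (a paired fit) moved no other count by over 1.5 times.

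Median changes moved as follows. From E7.5 to E8.5 the median was 0.11 under median scaling and 0.14 with no scaling. From E9.5 to E10.5 it was -0.02 under median scaling and under cyclic loess, and from E10.5 to E11.5 -0.07 under cyclic loess. From E11.5 to E12.5 it was 0.30, 0.45 and -1.84 under median scaling, cyclic loess and no scaling, and from E8.5 to E12.5 it was -0.12, 0.30 and -1.94. All genes moved by -0.28 from E8.5 to E9.5 under median scaling. Leaving out 1 array gave 1 to 8, 7 to 17, 0, 1 to 3, 20 to 22 and 31 to 37 called members in the 6 comparisons in the order E7.5 to E8.5, E8.5 to E9.5, E9.5 to E10.5, E10.5 to E11.5, E11.5 to E12.5 and E8.5 to E12.5. The medians were -0.15 to -0.05, -0.36 to -0.13, -0.02 to 0.15, -0.33 to -0.22, -0.44 to -0.14 and -1.0 to -0.70.

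Signs turned for single genes. From E8.5 to E9.5 Rpl27a gave 0.25 with the mean of probes. From E11.5 to E12.5, median scaling gave Rps24 0.43, Rplp2 2.29 and Rps19 2.78. Cyclic loess gave Rps24 0.13, Rpl14 -0.15, Rpl23 1.11, Rpl11 1.13, Rpl35a 0.84 and Rps19 1.39. No scaling gave Rpl14 -1.63, Rps14 -0.89, Rpl36a -1.13, Rpl38 -2.22 and Rps19 0.64. From E8.5 to E12.5, no scaling gave Rpl14 -0.28, Rpl39 -1.13, Rps3 -1.39 and Rps14 -1.16. Cyclic loess gave Rpl23 1.11, Rpl11 1.14, Rpl35a 0.32 and Rpl5 0.18, and median scaling gave Rplp2 1.76 and Rps19 0.14. The cause was not tested, and no scaling was a setting chosen after seeing the data. Genes near background are limited to bounds.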
